A study of Mus musculus with 8 samples.

Results

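The genes described here are those of the proteasome, with its assembly chaperones and activators, in whole mouse kidney. Members were chosen by name: array probes whose RefSeq accession belongs to a gene called Psma, Psmb, Psmc, Psmd, Psme or Psmg plus a number, without Psmb8 and Psmb9. This gave 47 genes with 58 probes, of 20660 named genes and 55681 probes on the array. Of the 47 genes, 2 share only the letters of the name: Psmc3ip, a cofactor of meiotic recombination, and Psme3ip1, a partner protein of the activator Psme3. Of the other 45 genes, 43 had a signal well above background on 4 or more of the 8 arrays and were tested. The remaining 2 were Psma8, a testis form of an alpha subunit, and Psmb11, the catalytic subunit of the thymus, and neither was well above background on any array.

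The study fed male mice, 12 weeks old by their labels, either standard chow or cinacalcet hydrochloride, a drug that activates the calcium-sensing receptor, for 5 days. The dose is labelled as 1 mg per g body weight, with no further basis given. Whole kidneys were frozen, and the RNA of 4 control and 4 cinacalcet samples was hybridised to 1 one-colour Agilent array each, all on 1 slide. The comparison asks which kidney transcripts differ after the drug. No genotype or strain is given in the labels used here, and separate animals are not stated for the 4 samples of a group, so a p-value here covers only the spread among these samples, which may be technical. In bulk tissue, fewer cells of a type and less RNA per cell cannot be told apart.

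The proteasome breaks down proteins that carry a ubiquitin tag. Its core is a barrel of stacked rings: alpha subunits form the gates at both ends and beta subunits form the inner rings, where Psmb5, Psmb6 and Psmb7 carry the cutting sites. A cap sits on the barrel: ATPases and scaffold proteins of its base unfold and feed in the substrate, and its lid removes the ubiquitin. Activators (Psme genes) open the gate without ubiquitin, and interferon replaces the cutting subunits with Psmb8, Psmb9 and Psmb10 in immune cells and inflamed tissue. In the kidney the proximal tubule, which takes up filtered protein, is a main site of protein turnover.

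All levels are log2 intensities relative to the 75th percentile of the same array, and a fold change is cinacalcet minus control on that log2 scale, from limma with Benjamini-Hochberg adjustment over 14209 genes. Across arrays, 51.8% to 58.0% of spots were well above background, and the 4 arrays per group limit the precision. On 3 arrays (control 4, cinacalcet 2 and cinacalcet 3) none of 4 Y-linked genes was well above background, against 3 or 4 of them on the other 5, although every sample is labelled male. Xist was at 0.46 to 0.95 on those 3 arrays and at -6.99 to -4.22 on the others. Listed markers of proximal tubule, thick ascending limb, distal tubule, collecting duct, podocytes and endothelium were all well above background, and none passed the test. Of 3 adrenal markers only Star was measured, at a log2 fold change of 0.36 that did not pass. Results are therefore given for all arrays, with the Y-linked split as a block, and without the arrays concerned. Without control 4 every control has Y-linked signal while cinacalcet 2 and 3 lack it, so that fit mixes the drug with the split. No member that fell without control 4 also passed as a fall with the block or on the 5 arrays with Y-linked signal.

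On the 8 arrays, 1 of the 43 proteasome genes passed an adjusted p of 0.05: Psmd9, a chaperone that helps assemble the base of the cap, rose. None fell. Among all genes tested 8.02% passed, 4.64% as falls and 3.37% as rises, so the count of members called was below the background for falls and near it for rises. Most estimates were small and negative. The log2 fold change was below 0 in 37 of 43 genes, against 54.6% of all genes, and its median was -0.13, against -0.03 for all genes. Other scalings and background corrections left 33 to 38 of 43 below 0. The median was -0.061 with quantile normalization and -0.059 with normexp and quantiles, against -0.011 and -0.0078 for all genes.

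**Figure D1:**
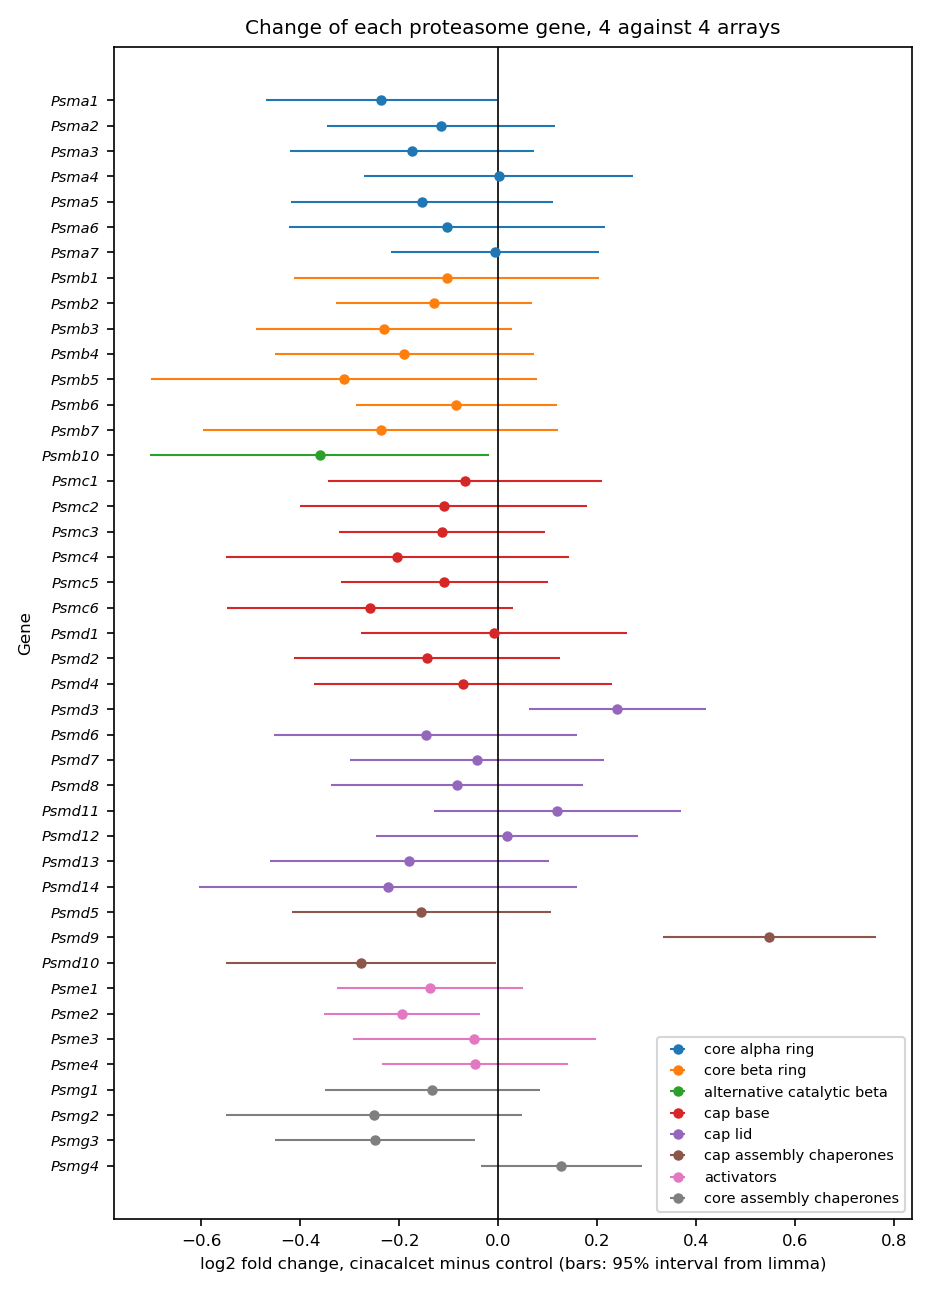
Log2 fold change of each of the 43 tested proteasome genes (x axis, cinacalcet minus control, log2 units) by gene (y axis), coloured by role, with the 95% interval from limma over 4 against 4 arrays. Psmd9 stands at 0.55, Psmd3 at 0.24, and most other genes lie between -0.31 and 0.

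Psmd9 was at 2.16, 2.15, 1.97 and 1.94 on control arrays 1 to 4 and at 2.43, 2.64, 2.59 and 2.75 on cinacalcet arrays 1 to 4. Every cinacalcet array was above every control array, and control 4 was the lowest of all. The mean went from 2.05 ± 0.11 (SD, n = 4) to 2.60 ± 0.13 (SD, n = 4), a log2 fold change of 0.55 (SE 0.09, limma adjusted p = 0.0185) or 1.46-fold. A fit with the Y-linked split as a block gave 0.56 (adjusted p = 0.0109), and the 5 arrays that have Y-linked signal gave 0.49 (adjusted p = 0.0746). Without control 4 it was 0.51 (adjusted p = 0.0153). The call was lost without control 2 or 3, or cinacalcet 2 or 3, with adjusted p of 0.0514 to 0.0648 and values of 0.52 to 0.58. A dimmer Psmd9 probe, also well above background on all 8 arrays, gave 0.26 (SE 0.12, adjusted p = 0.202 over all kept probes), and with the mean of both probes the gene did not pass (0.40, adjusted p = 0.0539).

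The promoter of Psmd9 is shown because it is the single member called, beside those of Psmb5, the core subunit with the largest negative estimate, and Psme1, an activator subunit induced by interferon. Each is the RefSeq window from 250 bases before to 50 bases after the start site on GRCm38.p6, read 5′ to 3′ on the gene's strand. Capitals mark 2 motifs searched on both strands: the antioxidant response element core TGACNNNGC, bound by the transcription factors NRF1 and NRF2, of which NRF1 is the known activator of proteasome genes, and the interferon-stimulated response element core, which is GAAA, 2 bases of any kind, then GAAA again.
Psmd9, chr5:123227940-123228239, plus strand: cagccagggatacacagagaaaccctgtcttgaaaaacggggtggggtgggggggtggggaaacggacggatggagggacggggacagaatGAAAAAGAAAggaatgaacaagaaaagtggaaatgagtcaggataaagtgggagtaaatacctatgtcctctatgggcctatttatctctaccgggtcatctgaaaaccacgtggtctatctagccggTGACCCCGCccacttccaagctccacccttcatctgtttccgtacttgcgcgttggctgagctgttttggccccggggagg
Psmb5, chr14:54617946-54618245, minus strand: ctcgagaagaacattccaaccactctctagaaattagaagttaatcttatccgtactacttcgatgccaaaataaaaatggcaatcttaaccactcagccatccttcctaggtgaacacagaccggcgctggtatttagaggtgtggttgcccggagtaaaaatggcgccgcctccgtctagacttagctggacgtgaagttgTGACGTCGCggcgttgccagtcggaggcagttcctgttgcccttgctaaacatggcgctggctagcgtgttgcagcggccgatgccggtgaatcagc
Psme1, chr14:55578244-55578543, plus strand: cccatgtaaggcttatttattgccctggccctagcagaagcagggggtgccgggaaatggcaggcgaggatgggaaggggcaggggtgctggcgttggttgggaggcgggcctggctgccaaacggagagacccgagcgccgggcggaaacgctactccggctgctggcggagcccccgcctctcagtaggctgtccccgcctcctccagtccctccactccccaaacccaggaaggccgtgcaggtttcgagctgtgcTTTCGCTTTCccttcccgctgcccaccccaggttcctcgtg

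In Psmd9 the antioxidant match began 31 bases and the interferon match 159 bases before the start site. The Psmb5 match began 47 bases before it, and the Psme1 match lay on the reverse strand just after the start. These letters describe the sequence and show no binding. The table holds 40 promoter windows for 37 of the 45 genes. The antioxidant core was in 6 of the 40 windows (15.0%), those of Psmb5, Psmb6, Psmc6, Psmd9, Psmd12 and Psme4, against 12.4% of all 32851 windows. The interferon core was in 5 of 40 (12.5%), those of Psmb3, Psmd4, Psmd9, Psme1 and Psmg4, against 3.44%. The CCAAT box, searched the same way, was in 13 of 40 (32.5%), against 37.4%. Genes with the antioxidant core lay on both sides of 0, from Psmd9 at 0.55 to Psmb5 at -0.31. Those with the interferon core did too, from Psmd9 at 0.55 to Psmb3 at -0.23. The windows of Psmb10 and Psme2, which are also inducible by interferon, held no interferon core.

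The alpha ring of the core gave 7 tested genes and no call. Their log2 fold changes ran from -0.24 to 0.00, with a median of -0.12 and 6 of 7 below 0. Psma1, the alpha gene with the lowest p, was at 4.86, 4.86, 4.86 and 4.49 in controls and at 4.54, 4.44, 4.54 and 4.61 with cinacalcet. Controls 1 to 3 were nearly equal and above all cinacalcet arrays, while control 4 lay among the cinacalcet arrays. It had a log2 fold change of -0.24 (SE 0.10, adjusted p = 0.176), and without control 4 it was -0.33 (adjusted p = 0.0152). The Y-linked block gave -0.18 (adjusted p = 0.135), and the 5 arrays that have Y-linked signal gave -0.29 (adjusted p = 0.0626). Psma3 had -0.17 (SE 0.11, adjusted p = 0.326). Psma4 had 0.00 (SE 0.12), the highest of the ring, with a 95% interval of -0.27 to 0.27.

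In the beta ring all 7 estimates were below 0, from -0.31 to -0.08, with a median of -0.19 and no call. The 3 cutting subunits come first. Psmb5, which cuts after hydrophobic residues, was at 8.01, 8.19, 8.11 and 7.47 in controls and at 7.68, 7.47, 7.50 and 7.87 with cinacalcet. Controls 1 to 3 lay above every cinacalcet array, and control 4 was as low as the lowest of them. Psmb5 had a log2 fold change of -0.31 (SE 0.17, adjusted p = 0.269), and its other probe gave -0.27. Without control 4 it was -0.47 (adjusted p = 0.0268). The Y-linked block gave -0.20 (adjusted p = 0.175), and the 5 arrays that have Y-linked signal gave -0.33 (adjusted p = 0.1).

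Psmb7, which cuts after basic residues, was at 4.19, 4.18, 4.11 and 3.51 in controls and at 3.81, 3.70, 3.66 and 3.88 with cinacalcet. Here control 4 was the lowest of the 8 arrays, and the other controls were the highest. Psmb7 had a log2 fold change of -0.24 (SE 0.16, adjusted p = 0.355), or -0.40 without control 4 (adjusted p = 0.0152). The Y-linked block gave -0.14 (adjusted p = 0.357), and the 5 arrays that have Y-linked signal gave -0.32 (adjusted p = 0.0608). Psmb6, which cuts after acidic residues, was at 7.05, 7.08, 7.11 and 6.79 in controls and at 6.95, 6.84, 6.92 and 6.99 with cinacalcet. Its control 4 was again the lowest array. Its log2 fold change was -0.08 (SE 0.09, adjusted p = 0.564), or -0.16 without control 4 (adjusted p = 0.0997). Psmb3, a structural beta subunit, had -0.23 (SE 0.11, adjusted p = 0.224) and passed without control 4, at -0.33 (adjusted p = 0.0316). It did not pass with the block (-0.16, adjusted p = 0.129) or over those 5 arrays (-0.23, adjusted p = 0.119).

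**Figure D2:**
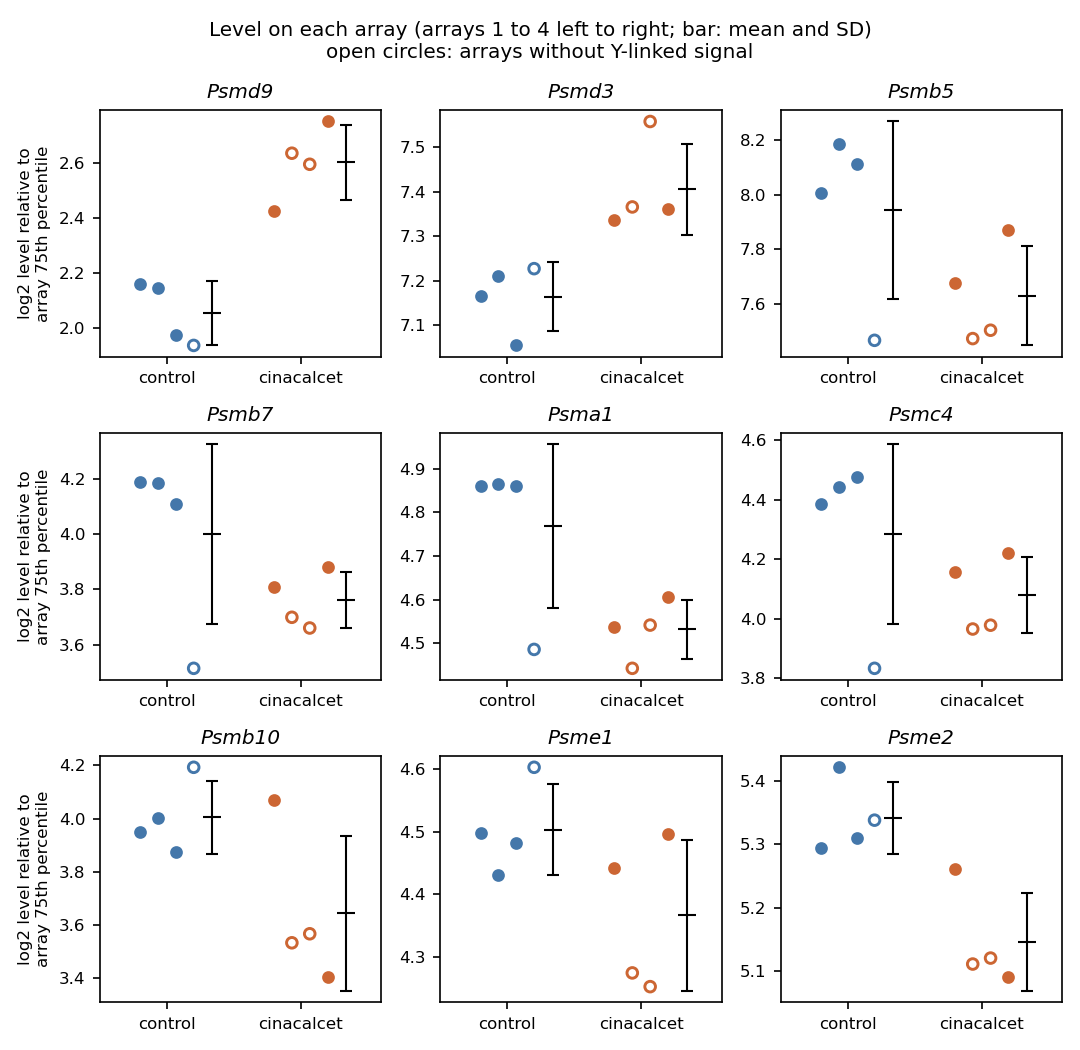
Log2 level relative to the array's 75th percentile (y axis) of 9 proteasome genes on each of 4 control and 4 cinacalcet arrays, in array order from left to right; the bar is the mean and SD, and open circles are arrays without Y-linked signal. For Psmb5, Psmb7, Psma1 and Psmc4 control 4 sits among or below the cinacalcet arrays and far below the other controls, whereas for Psmb10 and Psme1 it is the highest control.

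The cap gave 17 tested genes with a median of -0.11. In its base, 9 of 9 estimates were below 0, from -0.26 to -0.01, and none passed. Psmc6, an ATPase of the base, was at 2.88, 3.00, 2.87 and 2.46 in controls and at 2.64, 2.39, 2.50 and 2.63 with cinacalcet. All cinacalcet arrays were below controls 1 to 3, and control 4 lay within their range. Psmc6 had a log2 fold change of -0.26 (SE 0.13, adjusted p = 0.222), or -0.37 without control 4 (adjusted p = 0.0239). Psmc4, another ATPase, had -0.20 (SE 0.15, adjusted p = 0.412), or -0.35 without control 4 (adjusted p = 0.0270). With the Y-linked block Psmc6 and Psmc4 had -0.18 and -0.11 (adjusted p of 0.14 and 0.423). Over the 5 arrays that have Y-linked signal they had -0.28 and -0.25 (adjusted p of 0.0836 and 0.0951). Psmd1, the scaffold protein with the estimate nearest 0, had -0.01 (SE 0.12), with a 95% interval of -0.28 to 0.26 and a sign that changed under quantile normalization and normexp correction.

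The lid was the most mixed part, with 5 of 8 estimates below 0, a range of -0.22 to 0.24 and no call. Psmd3, a scaffold subunit of the lid, was at 7.16, 7.21, 7.05 and 7.23 in controls and at 7.34, 7.37, 7.56 and 7.36 with cinacalcet. The groups did not overlap, and cinacalcet 3 was well above the other 3 of its group. Its log2 fold change was 0.24 (SE 0.08, adjusted p = 0.0934), and it passed with normexp background correction under both scalings (adjusted p of 0.0475 and 0.0460). Psmd14, the enzyme that removes ubiquitin from the substrate, had -0.22 (SE 0.17, adjusted p = 0.415), or -0.37 without control 4 (adjusted p = 0.0719). Psmd13, a structural lid subunit, had -0.18 (SE 0.12, adjusted p = 0.371), or -0.30 without control 4 (adjusted p = 0.0318). For Psmd13 the Y-linked block gave -0.11 (adjusted p = 0.362). The 5 arrays that have Y-linked signal gave -0.21 (adjusted p = 0.112).

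Among the other cap chaperones, Psmd10 (gankyrin) was at 1.33, 1.37, 1.26 and 0.92 in controls and at 1.08, 0.88, 0.79 and 1.03 with cinacalcet. Only control 4 overlapped the cinacalcet arrays. Its log2 fold change was -0.28 (SE 0.12, adjusted p = 0.174), opposite in sign to Psmd9, also a chaperone of the base, or -0.38 without control 4 (adjusted p = 0.0257). Psmd5, the remaining chaperone of the base among the members, had -0.16 (SE 0.11, adjusted p = 0.407), or -0.27 without control 4 (adjusted p = 0.0281). With the Y-linked block Psmd10 and Psmd5 had -0.20 and -0.09 (adjusted p of 0.0746 and 0.457). Over the 5 arrays that have Y-linked signal they had -0.27 and -0.21 (adjusted p of 0.0835 and 0.108).

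Core assembly chaperones (Psmg genes) gave no call and estimates of -0.25 to 0.13. Psmg3 was at 2.58, 2.84, 2.70 and 2.59 in controls and at 2.53, 2.36, 2.32 and 2.51 with cinacalcet. The groups did not overlap, though the gap between them was small. The log2 fold change was -0.25 (SE 0.09, adjusted p = 0.115). Psmg2, another core chaperone, had -0.25 (SE 0.13, adjusted p = 0.248), or -0.37 without control 4 (adjusted p = 0.0247). For Psmg2 the Y-linked block gave -0.17 (adjusted p = 0.156). The 5 arrays that have Y-linked signal gave -0.27 (adjusted p = 0.0918). Psmg4 had 0.13 (SE 0.07, adjusted p = 0.277). Over all 43 genes the groups did not overlap in 4: Psme2 and Psmg3 were lower and Psmd3 and Psmd9 higher. For all genes the shares were 9.80% lower and 8.01% higher.

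Proteasome genes also differed within the control group. On control 4 the median proteasome gene was 0.29 below its control mean, while on controls 1 to 3 it was 0.06 to 0.11 above it. Control 4 was the lowest control in 14 of 14 core genes and 16 of 17 cap genes, Psmd3 being the exception, against 46.1% of all genes tested. It was the lowest in 2 of 4 activator genes and not in Psmb10. The distance of control 4 from the mean of controls 1 to 3 had a median of -0.38 in the core and -0.42 in the cap, against -0.06 in the activators and in all genes. Both genes that share only the letters of the name were lowest on control 4 too: Psmc3ip and Psme3ip1 were 0.86 and 1.09 on control 4 and 1.31 to 1.32 and 1.45 to 1.49 on controls 1 to 3.

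**Figure D3:**
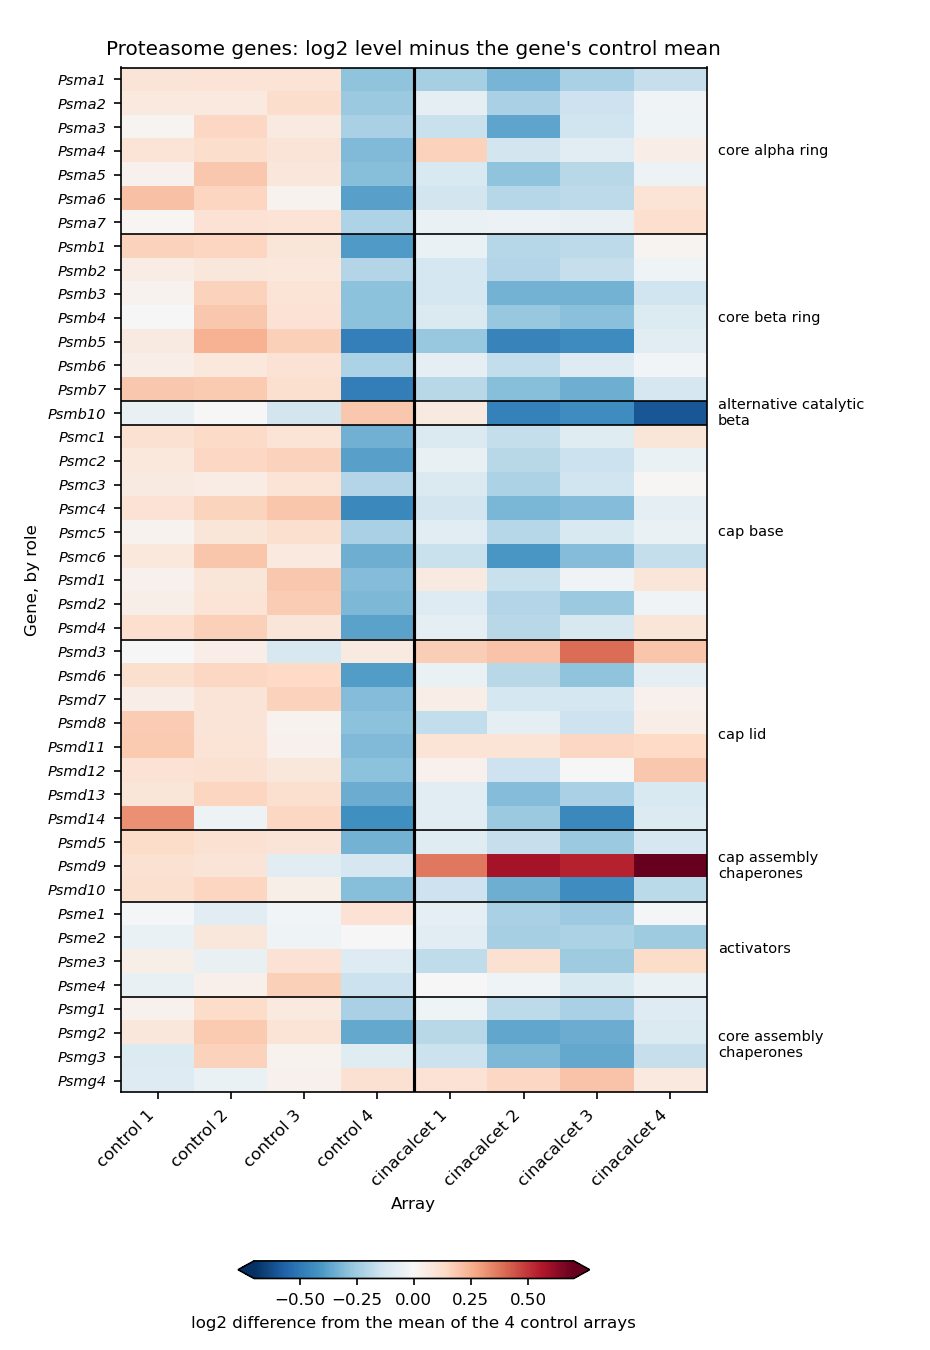
Log2 difference of each of 43 proteasome genes (rows, grouped by role) from its mean over the 4 control arrays, on each of 8 arrays (columns); red is above and blue below that mean. On control 4 the genes above their control mean are Psmd3, Psmb10, Psmg4 and Psme1. Most core and cap genes are blue on control 4 and on cinacalcet 1, 2 and 3. The core and cap medians are -0.11 and -0.08 on cinacalcet 1, and -0.03 and 0.0065 on cinacalcet 4.

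The arrays with and without Y-linked signal gave different orders. Among the 5 arrays with it, cinacalcet 1 and 4 were both below controls 1 to 3 in 29 of 43 genes, against 31.7% of all genes. Among the 3 without it, cinacalcet 2 and 3 were both above control 4 in 27 of 43 genes and both below it in 6, against 42.8% and 38.6% of all genes. Both were above control 4 in 14 of 17 cap genes, 9 of 14 core genes and 1 of 4 activators. Whether the drug difference itself differed between arrays with and without Y-linked signal was tested as an interaction in limma, which rests on control 4 as the single control without Y-linked signal. It passed for 0 of 43 genes and for 0% of all genes (adjusted p of at least 0.311 in the 43), with 12 of 43 (27.9%) at an unadjusted p under 0.05, against 12.8% of all genes. Tubule markers differed along this split too, in both directions. The summed linear signal of 5 proximal tubule markers was 846 to 903 on the 3 arrays without Y-linked signal and 994 to 1145 on the other 5. Among them Slc22a6, at 6.26 to 6.46 against 7.33 to 8.10, Slc34a1 and Aqp1 were lower on the 3 arrays, Lrp2 was higher, at 7.84 to 8.10 against 7.70 to 7.82, and Slc5a2 overlapped. The sum of the thick ascending limb markers Umod and Slc12a1 was higher on the 3 arrays, at 497 to 505 against 402 to 440. On control 4 the brown fat markers Ucp1 and Cidea summed to 32.8, against 6.56 to 10.1 on controls 1 to 3. The part of these cells in the result was not tested.

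**Figure D4:**
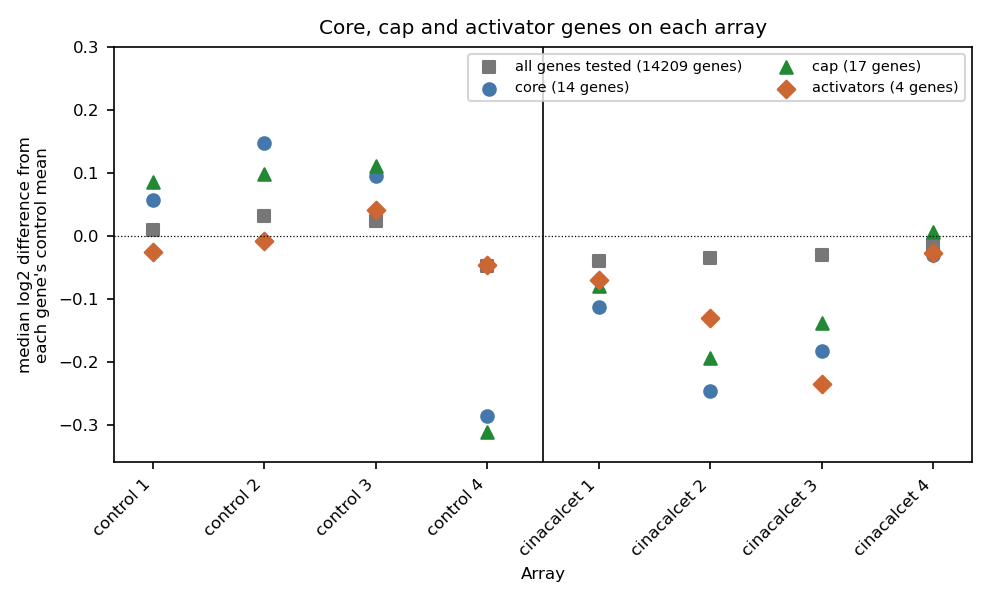
Median log2 difference from each gene's control mean (y axis) on each of the 8 arrays (x axis), for 14 core genes, 17 cap genes, 4 activator genes and all 14209 genes tested. Core and cap medians are -0.29 and -0.31 on control 4 and 0.06 to 0.15 on controls 1 to 3, while the activator median on control 4 is -0.05.

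Leaving out control 1, 2 or 3 gave 0 falls, while leaving out control 4 changed the count. Without it, 13 genes fell and 1 rose, against 15.8% and 7.85% of all genes. This fit has no control without Y-linked signal, while cinacalcet 2 and 3 lack it. In it the Y-linked gene Ddx3y had -3.83 and Xist 4.08, so the drug and the split cannot be fully told apart. Estimates were below 0 in 39 of 43 genes, against 55.8% of all genes, and in 29 of 43 every cinacalcet array was below controls 1 to 3, against 25.6%. With arrays weighted by their spread, which gave control 4 the lowest weight, 25 fell, against 24.0% of all genes. That fit plays down the same single control without Y-linked signal. The 13 were Psma1 of the alpha ring, Psmb3, Psmb4, Psmb5 and Psmb7 of the beta ring, Psmc2, Psmc4 and Psmc6 of the base, Psmd6 and Psmd13 of the lid, and the chaperones Psmd5, Psmd10 and Psmg2. Thus 5 of 14 core genes, 5 of 17 cap genes and 0 of 4 activators were called. The median log2 fold change of the 43 genes was -0.21, against -0.04 for all genes, and the largest fall was Psmb5 at -0.47. The fit that blocks on Y-linked signal keeps all arrays: none fell and 1 rose, against 10.4% and 6.64% of all genes, 33 estimates were below 0, against 53.8%, and the median was -0.07. Among the 5 arrays that have Y-linked signal none passed, against 5.45% lower and 2.40% higher, 37 estimates were below 0, against 56.3%, and the median was -0.15. Within slide row 1 the median was -0.23 and within slide row 2, which holds control 4, it was -0.02.

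**Figure D5:**
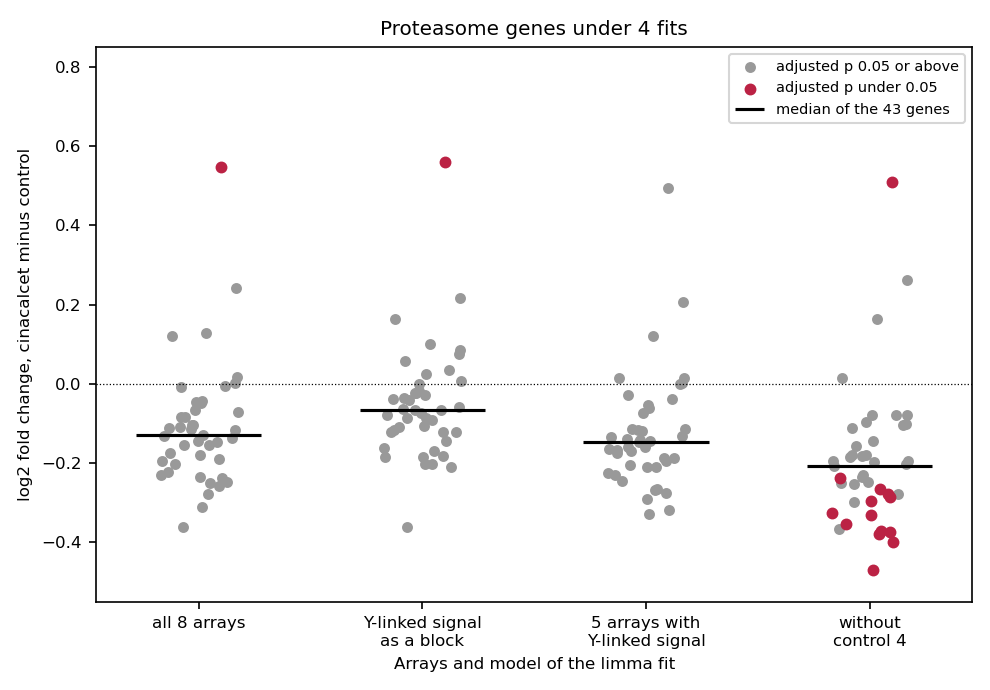
Log2 fold change of the 43 proteasome genes (y axis, cinacalcet minus control) under 4 limma fits (x axis); red points passed an adjusted p of 0.05 and the bar is the median. The medians are -0.13, -0.07, -0.15 and -0.21, and only the fit without control 4 has red points below 0, 13 of them. That fit has no control without Y-linked signal.

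The interferon-inducible members followed another order. Psmb10, the inducible subunit that takes the place of Psmb7, was at 3.95, 4.00, 3.87 and 4.19 in controls and at 4.07, 3.53, 3.57 and 3.41 with cinacalcet. Cinacalcet 1 lay within the controls and the other 3 below all of them, and control 4 was the highest array, the reverse of Psmb7. The log2 fold change was -0.36 (SE 0.15, adjusted p = 0.161), the lowest of the 43, and without cinacalcet 1 it was -0.50 (adjusted p = 0.0326). Psmb10 passed under no other alternative. The Y-linked block gave -0.36 (adjusted p = 0.154), and the 5 arrays that have Y-linked signal gave -0.20 (adjusted p = 0.531). Without control 4 its value was -0.30 (adjusted p = 0.197). Psme2, a subunit of the interferon-induced activator ring, was at 5.29, 5.42, 5.31 and 5.34 in controls and at 5.26, 5.11, 5.12 and 5.09 with cinacalcet, and cinacalcet 1 was again the highest of its group. Its log2 fold change was -0.19 (SE 0.07, adjusted p = 0.114), and a dimmer probe gave -0.14.

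Psme1, the partner of Psme2 in that ring, was at 4.50, 4.43, 4.48 and 4.603 in controls and at 4.44, 4.27, 4.25 and 4.50 with cinacalcet. Only cinacalcet 2 and 3, both without Y-linked signal, lay below the controls. Its log2 fold change was -0.14 (SE 0.08, adjusted p = 0.309), and among the 5 arrays that have Y-linked signal it was -0.0011. Psme3, the nuclear activator, was at 0.46, 0.37, 0.52 and 0.33 in controls and at 0.24, 0.52, 0.17 and 0.55 with cinacalcet, so the groups overlapped throughout. Psme4, an activator known from sperm development and DNA repair, was at 1.59, 1.68, 1.81 and 1.49 in controls and at 1.64, 1.61, 1.54 and 1.59 with cinacalcet. Their log2 fold changes were -0.05 each, with 95% intervals of -0.29 to 0.20 and -0.23 to 0.14. Another Psme4 probe of nearly equal brightness gave -0.16 (SE 0.10, adjusted p = 0.347 over all kept probes).

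Other genes of interferon-driven antigen processing were set beside these members. Of 13 listed genes, 3 of them proteasome members, all 13 were tested, 1 fell, none rose and the median log2 fold change was -0.36. That median is the value of the member Psmb10. The 10 listed genes that are not members had a median of -0.59, with 10 of 10 below 0. The gene that fell was B2m, the light chain of MHC class I, at 5.93, 6.01, 6.11 and 5.95 in controls and 5.72, 5.05, 5.13 and 5.27 with cinacalcet. Its cinacalcet 1 was again the highest of the group. The log2 fold change was -0.71 (SE 0.15, adjusted p = 0.0299), which still passed without control 4 or without cinacalcet 1. It was lost without any other single array, with adjusted p of 0.0659 to 0.0911, and with no filter on dim probes (adjusted p = 0.0643). In all, 12 of 24 alternatives ended the call. The 5 arrays that have Y-linked signal gave an adjusted p of 0.0962. Psmb8 and Psmb9, the other inducible cutting subunits, are named after their values were seen. They had -0.73 (adjusted p = 0.0735) and -0.81 (adjusted p = 0.0674), and on cinacalcet 1 they were at 1.48 and 1.91, each above the lowest control of its gene (1.41 and 1.89).

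Of 8 listed leukocyte markers 6 were measured, and Adgre1, Csf1r and Itgax fell while none rose. The summed linear signal of the 6 was 55.02 to 62.7 in controls, 45.5 on cinacalcet 1 and 31.5 to 36.1 on cinacalcet 2 to 4. Cd74, an interferon-inducible marker, was at 4.57 on cinacalcet 1, within the controls, and at 3.13 to 3.41 on cinacalcet 2 to 4. Csf1r was at 4.24 on cinacalcet 1, below cinacalcet 2 and 3 (4.34 and 4.604). The 3 erythroid markers measured, of 4 listed, summed to 116 to 167 in controls and 21.5 to 59.1 with cinacalcet, with Alas2 and Hbb-bt lower, while Slc4a1 had 0.23 and did not pass. Brown fat markers Ucp1 and Cidea summed to 6.56 to 32.8 in controls and 0.302 to 8.38 with cinacalcet, and Ucp1 fell. The part of these cells in the values of the proteasome genes was not tested.

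Genes that work with the proteasome were counted from 7 lists. Of 34 genes 32 were tested, 16 had estimates below 0, none passed on the 8 arrays and the median log2 fold change was -0.03. Of 7 regulators only 2, Nfe2l2 and Akirin2, had estimates below 0, and the median of the 7 was 0.07. Nfe2l2, which encodes NRF2, was at 3.42, 3.44, 3.42 and 3.57 in controls and at 3.24, 3.02, 3.09 and 3.30 with cinacalcet. The groups did not overlap, and control 4 was the highest array. The log2 fold change was -0.30 (SE 0.08, adjusted p = 0.0660). Akirin2, which carries proteasomes into the nucleus, had -0.22 (SE 0.12, adjusted p = 0.282), or -0.34 without control 4 (adjusted p = 0.0184).

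Pomp, the chaperone that closes the core, was at 4.54, 4.65, 4.66 and 4.31 in controls and at 4.35, 4.22, 4.34 and 4.27 with cinacalcet, so control 4 again lay among the cinacalcet arrays. It had -0.25 (SE 0.09, adjusted p = 0.133), or -0.32 without control 4 (adjusted p = 0.0190). Ecpas, which tethers proteasomes to other structures in the cell, had 0.15 (SE 0.10, adjusted p = 0.343), or 0.23 without control 4 (adjusted p = 0.0430). Nsfl1c and Vcp, a cofactor and the unfoldase that extracts substrates for the proteasome, had -0.24 and -0.13 (adjusted p of 0.322 and 0.487). Without control 4 they had -0.39 and -0.23 (adjusted p of 0.0170 and 0.0650). Akirin2, Pomp, Ecpas and Nsfl1c, which passed without control 4, did not pass with the Y-linked block (adjusted p of 0.113 to 0.388). Nor did they over the 5 arrays that have Y-linked signal (adjusted p of 0.0657 to 0.147). Of the deubiquitinases at the cap, Usp14 had -0.15 and Uchl5 0.09, and the ligases Ube3a and Ube3c had 0.10 and -0.05. With the mean over its probes Usp14 had -0.00054 (adjusted p = 0.996). The ubiquitin gene Rps27a had 0.15 and the first enzyme of the cascade, Uba1, had -0.10. The shuttle genes Ubqln4 and Rad23b had -0.16 and -0.10.

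Probes of the same gene mostly gave like values. In 11 of the 43 genes 2 probes were kept, and all but Psmc1 and Psmd12 had the same sign in both. These lay near 0: Psmc1 had -0.07 and 0.02, and Psmd12 had 0.02 and -0.02. The widest gap between probes was that of Psmd9, 0.55 and 0.26.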

How the data were processed

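RNA of 8 kidney samples was measured on one-colour Agilent arrays, 4 per group by sample title. The deposited spot intensity was background-corrected in Agilent Feature Extraction 11.0.1.1, per the file headers, while the submitters' processing notes name 9.5. No normalization between arrays is recorded. Control spots were left out, outlier spots set to missing and spots of a probe averaged, which left 55650 of 55681 probes. Log2 intensity had each array's 75th percentile subtracted. Probes were named by accession through RefSeq of GRCm38.p6 (27235 with 1 gene, 28446 without a name here, none with several). Probes well above background on at least 4 arrays were kept, and the brightest stood for its gene. The 2 groups were fitted in limma 3.58.1 (R 4.3.3), no covariates, with Benjamini-Hochberg adjustment over 14209 genes.

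Members and lists were chosen with earlier results of these data known. Named genes are every member called, the 2 lowest p of a role without a call, the extremes of each role, the cutting subunits, Psmb10 and the activators; from each partner list up to 4 called genes or 2 with the lowest p. The interaction test was added after seeing the data. Alternatives were other scalings, background corrections, filters, probe rules, variance settings, blocks and arrays left out. On simulated data for cinacalcet against control with 14209 genes, the fit recovered 4% of genes changed by 0.25, 36% at 0.5, 70% at 1 and 92% at 2 log2 units. The simulation changed 50 genes at each size, with independent noise, and called 106 genes, against 1139 in the data. The adjusted cutoff is stricter when fewer genes change, so recovery in the data may be higher.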

Additional observations from a re-analysis of the deposited data

Results flagged for a closer look

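In 38 genes named above, each group of 4 arrays was checked for a single array far from the other 3, and 11 of 76 groups stood out. The cutoff has 95% confidence for a single group. These genes vary together, and many were named for a low p or an extreme estimate. No share over all genes tested is given, so the count is not set against chance. In 9 of the 11 the array was control 4 and it was low. Among members these were Psma1 (4.49 against 4.86 on each of the others), Psma4 (3.67 against 4.07 to 4.11), Psmb6 (6.79 against 7.05 to 7.11), Psmb7 (3.51 against 4.11 to 4.19), Psmc4 (3.83 against 4.38 to 4.47) and Psmd13 (3.80 against 4.24 to 4.30). Among partner genes they were Akirin2 (2.46 against 2.91 to 2.99), Nsfl1c (4.54 against 5.10 to 5.18) and Vcp (5.45 against 5.85 to 5.88). Nfe2l2 stood out on control 4 in the other direction (3.57 against 3.42 to 3.44), and Psmd3 was high on cinacalcet 3 (7.56 against 7.34 to 7.37).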

How the results depend on the processing

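Counts of the 43 genes called on all 8 arrays, 0 lower and 1 higher, were recomputed under 24 alternatives. With array weights, where control 4 had the lowest weight at 0.219, 25 fell and 2 rose, against 24.0% and 14.2% of all genes. Leaving out 1 array gave 0 to 13 lower and 0 to 1 higher: 13 fell without control 4 and 1, Psmb10, without cinacalcet 1. Array weights and the fit without control 4 give little or no weight to the only control without Y-linked signal. The count of rises was 2 with normexp correction under either scaling (Psmd3 and Psmd9) and 0 with the mean over probes, within slide row 1, within slide row 2, with slide column as a block and among the 5 arrays that have Y-linked signal. With replicate number as a block, 0 rose and 0 fell, with 1 gene at an unadjusted p under 0.05 in limma. Same-numbered samples did not deviate together (correlations of 0.337, -0.544, -0.360 and -0.565), so the numbers were not taken as pairs. Of 912 values for 38 named genes, 23 in 7 genes changed sign. Psmd1 gave 0.074 with quantile normalization, 0.027 and 0.088 with normexp and the 75th percentile or quantiles, 0.10 within slide row 2, 0.058 with Y-linked signal as a block, and -0.11 to 0.054 with 1 array left out. Psma4 gave -0.0075 with the median of detected probes as scale, -0.12 with array weights, -0.065 within slide row 1, -0.19 with slide column as a block and -0.10 to 0.044 with 1 array left out. Psme3 and Psme4 gave 0.14 and 0.062 within slide row 2, and -0.11 to 0.019 and -0.096 to 0.0093 with 1 array left out. Rad23b and Uba1 gave 0.19 and 0.043 with the mean over probes, and Ube3c 0.0088 within slide row 2. The cause of these changes was not tested. At 4 arrays per group, changes of the size seen in most members were rarely recovered in simulation, which held fewer changed genes than were called in the data.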
